A study of Mus musculus with 2 samples.

Results

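Megakaryocytes are the bone marrow cells that shed platelets, and a small set of genes marks them and the stem cells primed toward them. The 9 genes described here, Itga2b, Gp1bb, Gp5, Gp9, Pf4, Vwf, Treml1, Cd9 and Gfi1b, were taken by name from the 34745 genes measured in BM LSKs (lineage-negative, Sca1+ c-Kit+ stem and progenitor cells) of Scl/tTA-BA mice on the C57BL/6 background. In these mice a tetracycline-controlled transactivator driven by Scl regulatory sequence turns on the BCR/ABL (BA) transgene of these cells. Doxycycline in the drinking water blocks the transactivator, so the transgene is kept silent until doxycycline is withdrawn. The week-0 library came from mice that still received doxycycline and the week-3 library from mice 3 weeks after its withdrawal, so the presence of doxycycline and the lack of BA cannot be told apart. Each library pooled the LSKs of 3 mice, the ages of the mice are not given in the sources used here, and both groups carry the same transgenes. With 1 library per time point there is no replicate check, and each difference below is between these 2 libraries.

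Platelets stop bleeding in steps. The GPIb-IX-V complex on their surface, which contains the products of Gp1bb, Gp5 and Gp9, catches von Willebrand factor (Vwf) on the damaged vessel wall. The integrin αIIbβ3, whose alpha chain is encoded by Itga2b (CD41), then binds fibrinogen and links platelets to each other. Alpha granules release Vwf and platelet factor 4 (Pf4) and bring the receptor Treml1 to the surface. Gfi1b is a transcriptional repressor needed for the megakaryocyte and erythroid lineages, and Cd9 is a tetraspanin of platelets that many other blood cells also carry. Among LSKs, Itga2b and Vwf are known as marks of stem cells with a platelet bias, and the cytokine thrombopoietin maintains both stem cells and megakaryocytes.

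The members did not move as one group. At week-3, Itga2b had nearly 2 times its week-0 level (ratio 1.90), and Treml1 (ratio 0.363) and Vwf (ratio 0.508) were at the other end. The complex subunits Gp5 and Gp9 were at ratios of 0.648 and 0.617, and Pf4, Cd9 and Gfi1b were between 0.866 and 1.14. All 9 genes had at least 10 reads over both libraries. A gene was called lower when its FPKM (fragments per kilobase of exon and per 1000000 reads) at week-3 was at most 0.5 times that at week-0, and higher when it was at least 2 times. By this rule 1 member, Treml1, was called lower and 0 were called higher. Among all 13689 genes with as many reads, 17.9% were called lower and 11.9% higher, so 1 of 9 is close to the background.

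Promoter sequences from RefSeq (GRCm38.p6) were matched for 8 of the 9 members, all but Vwf. The 250 bases before the start of each gene are shown for Gp5 and Gp9, whose ratios were close to each other, for Treml1, the member called lower, and for Gfi1b, which holds a GATA match. Each runs 5′ to 3′ toward the gene's start, and capitals mark matches, on either strand, to AGATAA or AGATAG or TGATAA or TGATAG (letters bound by GATA factors) and to TGTGGT (letters bound by RUNX factors). The windows are chr16:30310782-30311031 on the minus strand for Gp5, chr6:87777820-87778069 on the plus strand for Gp9, chr17:48359666-48359915 on the plus strand for Treml1 and chr2:28621983-28622232 on the minus strand for Gfi1b.
Gp5: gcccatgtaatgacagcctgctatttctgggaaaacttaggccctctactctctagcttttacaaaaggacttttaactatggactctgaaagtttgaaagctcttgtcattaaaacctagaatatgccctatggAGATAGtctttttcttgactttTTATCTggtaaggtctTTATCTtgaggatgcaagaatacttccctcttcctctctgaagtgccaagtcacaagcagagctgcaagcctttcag
Gp9: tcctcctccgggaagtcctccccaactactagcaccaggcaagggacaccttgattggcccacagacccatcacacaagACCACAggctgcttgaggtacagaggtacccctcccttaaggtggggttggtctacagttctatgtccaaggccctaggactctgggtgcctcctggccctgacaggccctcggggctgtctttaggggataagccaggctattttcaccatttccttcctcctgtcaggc
Treml1: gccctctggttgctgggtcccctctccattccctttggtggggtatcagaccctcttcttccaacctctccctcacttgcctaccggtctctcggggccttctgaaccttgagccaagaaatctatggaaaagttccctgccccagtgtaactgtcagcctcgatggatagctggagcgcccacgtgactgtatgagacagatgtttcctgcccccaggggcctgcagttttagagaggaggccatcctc
Gfi1b: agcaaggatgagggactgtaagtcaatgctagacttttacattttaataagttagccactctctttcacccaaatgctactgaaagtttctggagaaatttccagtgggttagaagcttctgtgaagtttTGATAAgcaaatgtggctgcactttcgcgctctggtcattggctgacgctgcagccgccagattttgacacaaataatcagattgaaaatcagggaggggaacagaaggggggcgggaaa

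Gp5 held 3 GATA matches, whose first bases were 115, 93 and 77 bases before the start. Gfi1b held 1, at 120 bases, and Gp1bb held 1, at 22 bases. These were 3 of the 8 matched members, and 26.5% of all 32851 promoters in the table hold such a match in the same window. The Gp9 window held the only RUNX match, at 171 bases, which 14.0% of all promoters hold. No member window held CAGGAAG or CCGGAAG, letters bound by ETS factors, which 17.0% of all promoters hold. The matches are descriptions of letters and not of bound sites, and they depend on the exact letters searched. Gp5 and Gp9 shared no match to these letters.

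The libraries held 6356164 reads on genes at week-0 and 3886695 at week-3. A count of 3 reads was 0.472 RPM (reads per 1000000 reads on genes) at week-0 and 0.772 at week-3. The reads of the transgene were not counted apart, and the mouse genes Bcr and Abl1 had 371 and 395 reads at week-0 and 108 and 144 at week-3. Of the sorting markers, Kit had an FPKM of 16.9 and 11.5 and Ly6a (Sca1) of 19.8 and 14.8, so both defining genes were present in both libraries. Of the marker lists of other cells, all 9 mast cell or basophil genes and all 10 neutrophil genes were called higher at week-3, and all 10 erythroid genes were called lower. The mast cell or basophil list went from 183.8 to 4094 RPM, the neutrophil list from 3496 to 16480, and the erythroid list from 1511 to 110.6. The lists of B lineage (913.1 to 82.3), macrophage (47.8 to 82.3), T or NK cell (452 to 677), stem cell (429 to 273) and multipotent progenitor genes (1703 to 816) also differed. The B lineage sum rested on Jchain at week-0, with 5120 of the 5804 reads. At week-3 it rested on Cd79b, with 216 of 320. Of 6 B lineage genes evaluated 5 were called lower, and Cd79b (ratio 1.125) was not called. The T or NK cell sum rested on Nkg7, with 2839 of the 2875 reads at week-0 and 2627 of 2631 at week-3. Klrd1 of that list was called lower, from 23 reads to 2. Of 9 stem cell genes 4 were called lower and 1 higher, and of 3 multipotent progenitor genes 1 was called lower and 0 higher. The 9 members together had 292.5 RPM at week-0 and 337.8 at week-3. In RNA from many cells, fewer cells of a type and less RNA per cell cannot be told apart, and the part of these lists in the results below was not tested.

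**Figure D1:**
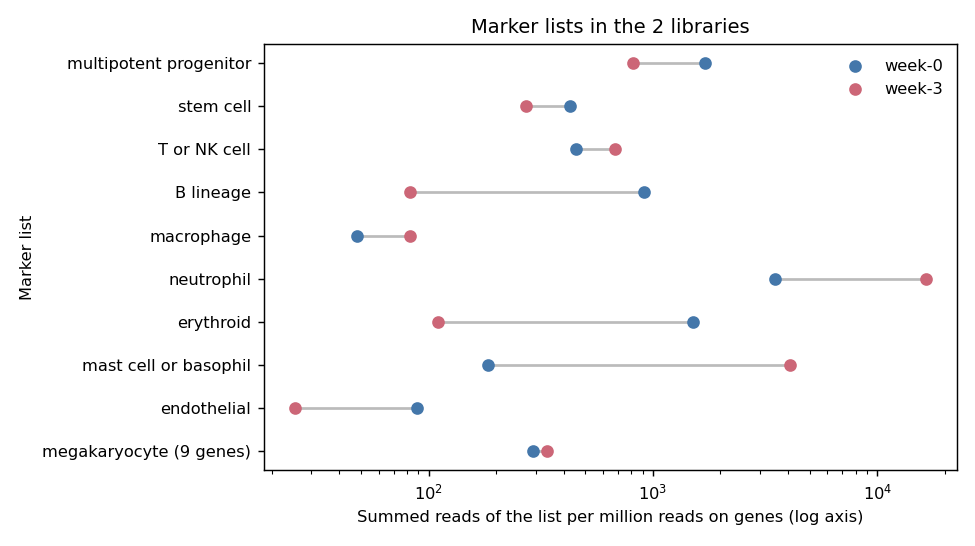
Summed reads of each marker list in RPM, reads per 1000000 reads on genes (log axis), in the week-0 and the week-3 library, 1 library each. The 9 megakaryocyte genes went from 292.5 to 337.8, the ratio closest to 1 of the lists shown, while the mast cell or basophil list went from 183.8 to 4094.

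The order of the members by level was led by Cd9 at both time points, with an FPKM of 40.1 (95% Poisson interval 37.0 to 43.4) at week-0 and 34.8 (31.1 to 38.8) at week-3. At week-0 it was followed by Gp9 at 18.9 and Pf4 at 15.9, whose intervals (15.5 to 22.9 and 13.3 to 18.8) overlapped. Itga2b at 10.7, Gfi1b at 8.72 and Gp5 at 7.95 came next, and the interval of Gfi1b overlapped those of both its neighbours. Treml1 (4.54), Gp1bb (1.20) and Vwf (0.920) were lowest, with overlapping intervals for Gp1bb and Vwf. At week-3 Itga2b, at 20.4, followed Cd9 and stood clear of Pf4 at 14.6. The intervals of Pf4 and Gp9 (11.7) overlapped there, as did those of Gp9 and Gfi1b (9.97) and of Gp1bb (2.07) and Treml1 (1.65).

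**Figure D2:**
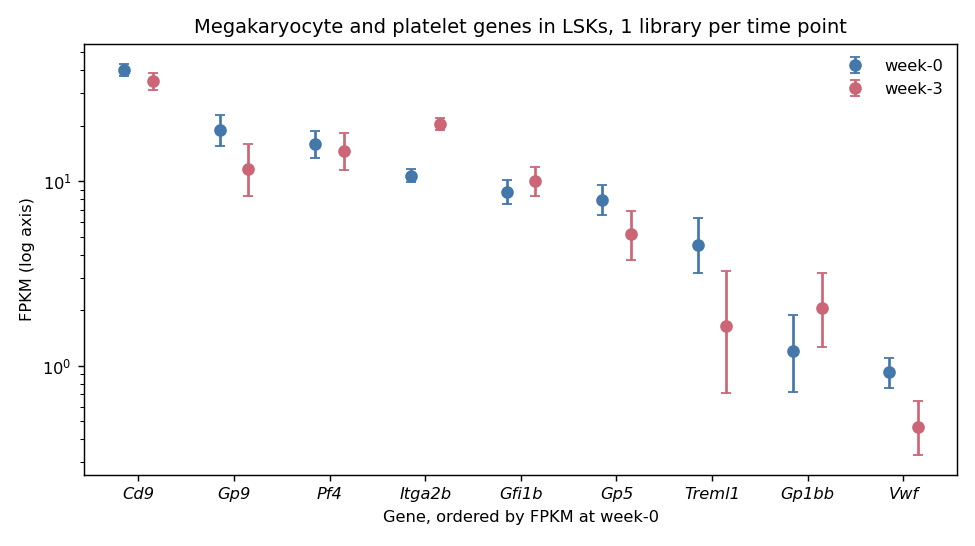
FPKM (log axis) of the 9 genes in the week-0 and week-3 libraries, with 95% Poisson intervals that cover counting error only. Cd9 was highest at both time points, at 40.1 and 34.8, Vwf was lowest, at 0.920 and 0.467, and Itga2b went from 10.7 to 20.4.

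These levels depend on the exon length behind the FPKM. For Vwf the deposited values imply 19829 bases of exon, against 8834 for its coding transcript with the longest coding sequence in GENCODE M21. For Itga2b the lengths were 8117 and 3437, and for Pf4 1359 and 588. Scaled to the length of the coding transcript, in RPM per kilobase, Itga2b was at 25.4 and 48.3, Pf4 at 36.7 and 33.7, and Vwf at 2.07 and 1.05 at week-0 and week-3. On this scale Pf4 and Itga2b stood ahead of Gp9 (18.9) at week-0, and Gp1bb (1.43), not Vwf, was lowest there. The ratio between the libraries does not depend on the length.

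Coordinates are on GRCm38, and all 9 members are protein-coding genes in GENCODE M21. Itga2b (ENSMUSG00000034664, chromosome 11, 102453297 to 102470122, minus strand) was counted with 554 reads at week-0 and with 645 at week-3. Its FPKM was 10.7 in the first library and 20.4 in the second. The smaller library thus held more of its reads than the larger one. The log2 ratio was 0.93 (95% counting interval 0.76 to 1.10), which is a ratio between 1.70 and 2.14, so the limit of 2 lay inside the interval. Its partner in the integrin, Itgb3, had 122 and 72 reads and an FPKM of 2.22 and 2.14, a log2 ratio of -0.05 (interval -0.49 to 0.38). Taken within each library, which no scaling changes, the FPKM of Itga2b was 4.83 times that of Itgb3 at week-0 and 9.53 times at week-3. The read ratio of the pair was 1.97 times higher at week-3 (interval 1.43 to 2.74). Itga2b was compared in the same way with the 8 other members. Its ratio was the highest of the 9 members, so its reads had to be higher at week-3 relative to each of the 8. The interval was above 1 for 7 of them, all but Gp1bb. These comparisons all share the reads of Itga2b and are not separate support for its rise. Against Cd9, the member with the next most reads, the read ratio was 2.20 times higher (interval 1.83 to 2.63).

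Of the GPIb-IX-V subunits, Gp5 and Gp9 were lower at week-3, and the intervals of Gp1bb and Gp1ba held 0. Gp9 (ENSMUSG00000030054, chromosome 6, 87778072 to 87779768, plus strand) went from 106 reads and an FPKM of 18.9 to 40 reads and 11.7. Gp5 (ENSMUSG00000047953, chromosome 16, 30307686 to 30310779, minus strand) went from 111 reads and an FPKM of 7.95 to 44 reads and 5.16. Both were lower at week-3, with log2 ratios of -0.70 (interval -1.26 to -0.16) and -0.63 (interval -1.16 to -0.11), and neither was called. Their read ratio to each other, Gp9 over Gp5, was 0.952 times its week-0 value (interval 0.557 to 1.63). Gp1bb (ENSMUSG00000050761, chromosome 16, 18620319 to 18622403, minus strand) went from 19 reads and an FPKM of 1.20 to 20 reads and 2.07, a log2 ratio of 0.78 (interval -0.20 to 1.77). The interval holds 0, so no difference of Gp1bb was detectable at this depth. Relative to Gp5 its reads were 2.64 times higher at week-3 (interval 1.21 to 5.80). The value of Gp1bb is uncertain, because 91.1% of its exon bases in GENCODE M21 are also exon of Sept5 (ENSMUSG00000072214) on the same strand, and how the authors assigned shared reads is not given. Sept5 had 10 and 7 reads. Gp1ba, the remaining subunit, which carries the binding site for Vwf, had 16 and 5 reads and a log2 ratio of -0.97 (interval -2.77 to 0.55). On the scale of FPKM the subunits were far from equal, with Gp9 at 2.38 times Gp5 at week-0 and 2.27 times at week-3.

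Of the granule genes, Pf4 stayed near its level and Vwf did not. Pf4 (ENSMUSG00000029373, chromosome 5, 90772435 to 90773383, plus strand) went from 137 reads and an FPKM of 15.9 to 77 reads and 14.6. Its log2 ratio was -0.12 (interval -0.54 to 0.29), which leaves ratios from 0.686 to 1.22. Ppbp, a platelet chemokine of the same family, singled out after its values were seen, had 28 reads and then 2, a log2 ratio of -3.10 (interval -6.21 to -1.11). The read ratio of Pf4 to Ppbp was 7.82 times higher at week-3 (interval 1.89 to 69.6). Vwf (ENSMUSG00000001930, chromosome 6, 125546774 to 125686679, plus strand) went from 116 reads and an FPKM of 0.920 to 36 reads and 0.467. Its log2 ratio was -0.98 (interval -1.56 to -0.43), a ratio of 0.508 just above the limit for a call. With TMM scaling the ratio was 0.469 and with median-of-ratios scaling 0.477, and Vwf was then called lower. Vwf is also made by endothelial cells, and the 8 endothelial markers together went from 88.7 to 25.5 RPM. That sum rested mainly on Tie1 (274 reads, then 34), Robo4 (138, then 34) and Emcn (108, then 19), of 564 and 99 in total. Of the 8 markers, 5 had enough reads to be evaluated and 4 of them were called lower. Among the 4, Flt1 fell from 10 reads to 2, with an interval of its log2 ratio (-4.84 to 0.62) that holds 0. Cdh5 and Kdr, defining endothelial genes, had 3 and 4 reads in the first library and none in the second. The part of endothelial cells in the value of Vwf was not tested.

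Treml1 (ENSMUSG00000023993, chromosome 17, 48359916 to 48367174, plus strand) went from 36 reads and an FPKM of 4.54 to 8 reads and 1.65. It was the member with the largest fall, with a log2 ratio of -1.46 (interval -2.78 to -0.33) or a level 2.75 times lower. With 8 reads the counting interval of the ratio ran from 0.146 to 0.795, so it also holds changes smaller than the limit.

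Cd9 and Gfi1b differed little between the libraries. Cd9 (ENSMUSG00000030342, chromosome 6, 125460266 to 125494791, minus strand) went from 604 reads and an FPKM of 40.1 to 320 reads and 34.8, a log2 ratio of -0.21 (interval -0.41 to -0.01). It lies 52.0 kb from Vwf on chromosome 6, and relative to Cd9 the reads of Vwf at week-3 were 0.586 times those at week-0 (interval 0.382 to 0.882). Gfi1b (ENSMUSG00000026815, chromosome 2, 28609450 to 28621982, minus strand) went from 176 reads and an FPKM of 8.72 to 123 reads and 9.97. Its log2 ratio was 0.19 (interval -0.15 to 0.53). Gata1, the factor that drives megakaryocyte and erythroid genes, had 92 and 48 reads and a log2 ratio of -0.23 (interval -0.76 to 0.29). For Pf4, Cd9 and Gfi1b the whole interval lay between the limits of 0.5 and 2.

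**Figure D3:**
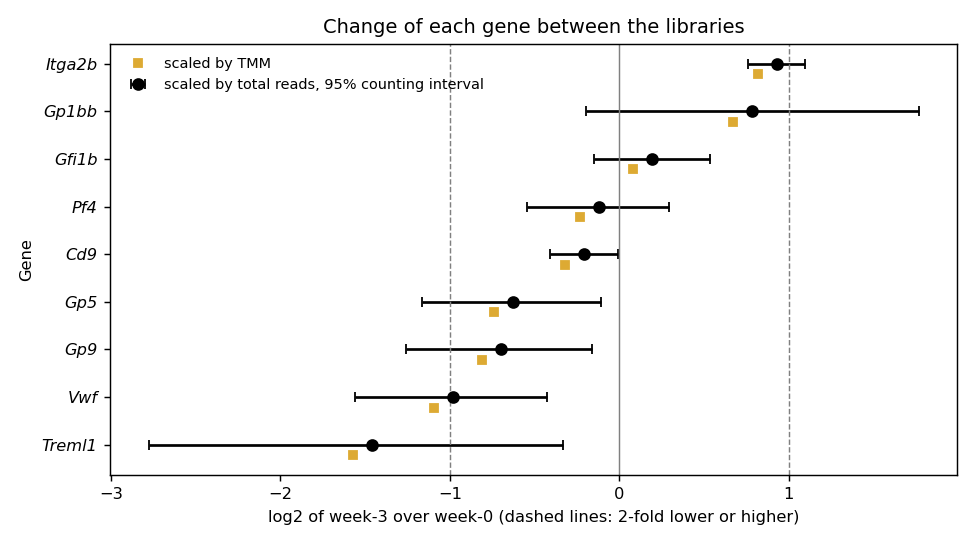
log2 of the week-3 over the week-0 level of each gene, scaled by total reads (black, with 95% counting intervals) and by TMM (yellow); dashed lines mark the limits of 2 times lower and higher. Treml1 (-1.46) lies beyond a limit with either scaling, Vwf (-0.98) only with TMM, and the interval of Itga2b (0.76 to 1.10) lies above 0.

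Over the members, the interval lay below a ratio of 1 for 5 genes, above it for 1 and held it for 3. Among all genes with at least 10 reads, 27.3% had an interval below 1 and 31.7% above 1. The median log2 ratio of the 9 members was -0.21, beside 0.05 for all genes evaluated. The summed reads of the members, 1859 at week-0 and 1313 at week-3, gave a log2 ratio of 0.21 (interval 0.10 to 0.31), opposite in sign to the median. The sign of the sum rests on Itga2b, without which it was -0.26 (interval -0.39 to -0.12).

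**Figure D4:**
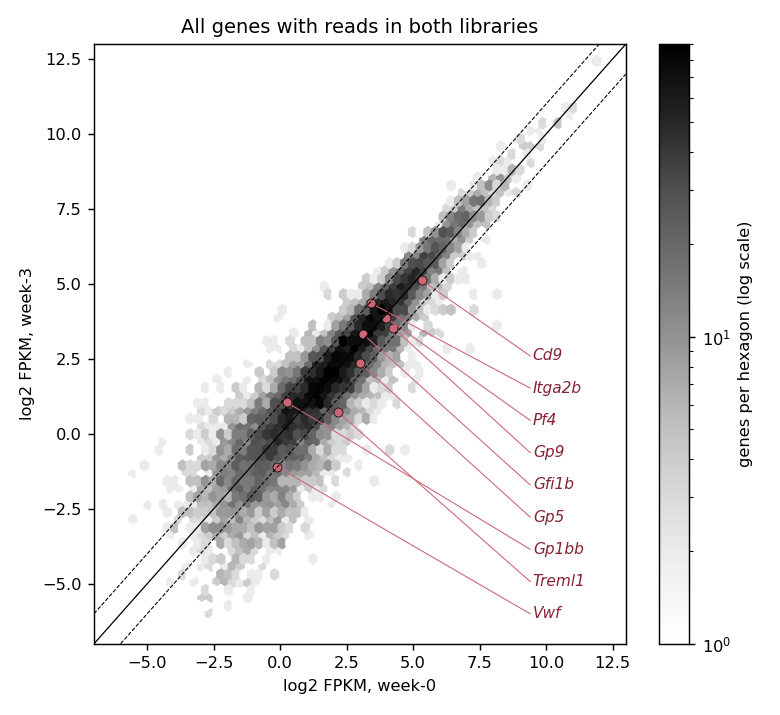
log2 FPKM at week-0 and week-3 of the 13384 genes with at least 10 reads over both libraries and reads in each; grey shows genes per hexagon, the solid line equal values and the dashed lines 2 times higher or lower. The 9 labelled genes lie within the cloud of all genes, with Treml1 beyond the lower dashed line and Itga2b just inside the upper one.

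Other megakaryocyte and platelet genes were read from 5 lists with 100 genes in the tables, of which 89 had at least 10 reads. The lists were chosen with earlier results of these data known, so their shares beside those of all genes are a description and not a test. Of the 89, 28 were called lower (31.5%) and 6 higher (6.74%), beside 17.9% and 11.9% of all genes, and their median log2 ratio was -0.44. The largest share was in the thrombopoietin axis, where 3 of 6 genes evaluated were called lower and 0 higher. Among them, Sh2b3, an adaptor that restrains cytokine signalling, had a log2 ratio of -2.42 and Stat5b, a transcription factor activated by cytokines, of -1.27. Stat5a (-0.80), Stat3 (-0.45) and Jak2 (0.03, and -0.08 with TMM scaling), a kinase of cytokine receptors, were not called, and Thpo, which encodes thrombopoietin, had no reads in either library.

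Of 21 genes of granule cargo and secreted proteins, 10 were called lower and 3 higher, with a median log2 ratio of -0.69. Those called lower included Tgfb1, a cytokine of platelet alpha granules (log2 ratio -1.34), Vegfa, a vascular growth factor (7.99 times lower) and Mmrn1, which carries factor V in platelets (-3.52). Called higher were F13a1, the transglutaminase chain of factor XIII that cross-links fibrin (2.32), the protease inhibitor Serpine2 (1.82) and F10, coagulation factor X (4.48, interval 3.18 to 6.14, from 5 reads to 68). F13a1 and F10 are also made by monocytes and macrophages. The macrophage list of 6 genes went from 47.8 to 82.3 RPM with 0 of the 2 genes evaluated called (Csf1r at a ratio of 1.89 and Cd68 at 1.72). Adgre1 had 3 and 5 reads and C1qc 6 and 0, and the part of such cells was not tested. Srgn (0.10, and -0.01 with TMM scaling), Stxbp2 (0.16) and Unc13d (-0.32), which serve granule storage and release in many blood cells, were not called.

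Of 20 adhesion and agonist receptors, 6 were called lower and 2 higher, with a median log2 ratio of -0.22. The direction of this median depends on the filter, since the median change in log2(FPKM + 0.1) over the 16 of these genes at or above 1 FPKM was 0.10, beside 0.10 for all such genes. F2r, the thrombin receptor PAR1, fell most among them, from 1107 reads and an FPKM of 52.7 to 66 reads and 5.14, a level 10.3 times lower. The cell junction proteins Esam (-1.05) and Jam3 (-1.19) were also called lower, as was the collagen receptor chain Itga2 (-1.38), although its interval, from -3.41 to 0.24, holds 0. Selp, which encodes P-selectin of alpha granules, was called higher, with 74 and 107 reads and a log2 ratio of 1.24 (interval 0.80 to 1.69), and so was the ADP receptor P2ry1 (1.99). Cd63 (0.32), Fcer1g (0.67) and Itgb1 (0.25), which are found on many blood cells, were not called.

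Transcription factors stood closest to the background in the share called lower, with 4 of 22 called lower and 1 higher and a median log2 ratio of -0.22. The 4 were Mef2c (-1.41), Mafk (-2.24), which pairs with NF-E2, Erg (-1.35) and Zfpm1 (-1.69), the cofactor FOG1 of Gata1. Myb, which restrains megakaryocyte formation, was called higher at 1.08, but its ratio with TMM scaling, 1.96, was under the limit. Lyl1 (0.53), Lmo2 (-0.33) and Fli1 (-0.05) were not called. Of 20 genes of the cytoskeleton and of platelet signalling, 5 were called lower and 0 higher, with a median of -0.44. They included Myh9, the heavy chain of non-muscle myosin that platelets use (-1.86), the kinase Syk (-1.06), thromboxane synthase Tbxas1 (-1.11) and Plek (-1.34), while Gnb1 (0.78), Fermt3 (-0.28) and Bin2 (-0.36) were not called. Tubb1, the beta-tubulin of mature megakaryocytes and platelets, singled out after its values were seen, had 0 reads in the week-0 library and 1 read at week-3.

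**Figure D5:**
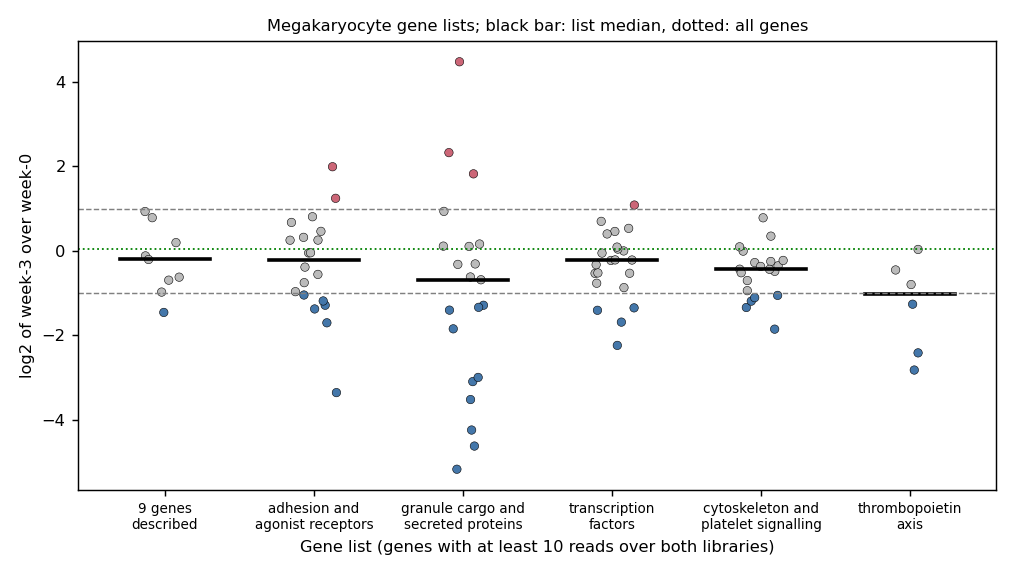
log2 of the week-3 over the week-0 level of each gene with at least 10 reads, for the 9 genes described and the 5 lists of other megakaryocyte genes; blue points are called lower, red higher, grey neither, bars are medians, and a library at 0 reads was set to 3 reads. The medians run from -0.21 for the 9 genes to -1.03 for the thrombopoietin axis, all below the 0.05 of all genes (dotted), although that of the adhesion and agonist receptors turned to 0.10, equal to all genes, over genes at or above 1 FPKM. The lists were chosen with earlier results of these data known.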

How the data were processed

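RNA-seq was available for 1 library of BM LSKs at week-0 and 1 at week-3, each a pool of 3 mice. SMARTer Ultra Low Input chemistry was used by the authors for cDNA, and the paired-end reads were trimmed and aligned to GRCm38 (TopHat2, version 2.0.9 in the submitters' processing notes). The counting tool, the annotation release and any use of strand are not given in the sources used here. The authors deposited counts (whole reads per gene) and FPKM (reads scaled by exon length and by the reads on genes).

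Tables were joined by Ensembl gene identifier. A gene was evaluated from 10 reads summed over the libraries, and was called lower at an FPKM ratio of at most 0.5 and higher at a ratio of at least 2; a library at 0 reads was set to 3 reads. The week-3 share of a gene's reads has a Clopper-Pearson interval (95%, exact), written as a ratio. FPKM intervals are exact Poisson intervals, and read ratios of paired genes have exact conditional intervals. All cover counting error only. No p-value is given, since the quasi-likelihood test of edgeR cannot be fitted to 1 library per time point. Alternatives used TMM and the exact test of edgeR 4.0.16 and size factors of DESeq2 1.42.0 (R 4.3.3). Other steps ran in scipy 1.17.1, pandas 2.3.3 and numpy 2.4.6 under Python 3.11.15, with plots from matplotlib 3.10.9. The procedures were tested on simulated data.

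The genes described and the 5 lists of other megakaryocyte genes were chosen with earlier results of these data known. From each list, the genes named are up to 4 called in each direction and up to 3 not called, those with the most reads, plus Gp1ba, Itgb3 and Gata1. Ppbp, Thpo and Tubb1 fall outside this rule and were named after their values were seen. Some genes that this rule names are not reported here. Of 102 symbols in these lists, 2 (Mpig6b and Cavin2) were not matched, being newer names of G6b and Sdpr, which were. Strand, transcripts and overlaps come from GENCODE M21, and promoter sequences from RefSeq on GRCm38.p6.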

Additional observations from a re-analysis of the deposited data

How the results depend on the processing

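No paired analysis was possible because each time point has 1 library, and for the same reason no library could be left out. TMM scaling shifted the log2 ratio of every gene by -0.11 and median-of-ratios scaling by -0.09. With either, 2 of the 9 members were called lower, Vwf and Treml1, beside 19.7% and 19.4% of all genes. With a minimum of 50 reads 7 members were evaluated, since Treml1 and Gp1bb had fewer, and 0 were called lower and 0 higher. Of all genes with as many reads, 12.7% were called lower and 8.87% higher. With limits of 1.5 and 0.67 the numbers of members were 4 lower (Vwf, Treml1, Gp9 and Gp5) and 2 higher (Itga2b and Gp1bb), beside 27.0% and 24.6% of all genes. A further setting also required a q-value under 0.05 in the exact test of edgeR, which compares these libraries and not the conditions. With an assumed biological coefficient of variation of 0.1 this setting left 1 member lower, beside 13.6% of all genes. At 0.4 the same setting left 0 members lower. With 0.4, 3 of the other megakaryocyte genes were lower and 1 higher, where all genes gave 1.42% and 0.38%. Without a minimum of reads 10 of 97 other megakaryocyte genes were called higher, beside 19.6% of all genes, and with limits of 1.5 and 0.67 there were 11 of 89, beside 24.6%. The summed reads of the members gave a log2 ratio of 0.10 with TMM scaling and -0.26 without Itga2b. Of 36 alternative values of single members, 35 lay within the counting interval, 0 changed sign, and 1, the log2 ratio of Vwf with a pseudocount of 1 FPKM, was outside it at -0.39. The median of the adhesion and agonist receptors, as the difference in log2(FPKM + 0.1), was 0.10 over genes at or above 1 FPKM and -0.18 over all genes with a read. The spread between mice was not measured, and the depth leaves wide intervals for members with few reads.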

Other observations

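The deposited tables give GO terms for each gene, and those on platelets were counted after the data were seen, with the 9 members left out. For platelet activation, 22 of 67 genes evaluated were called lower and 7 higher, with a median log2 ratio of -0.48. For platelet aggregation the numbers were 12 lower and 3 higher of 39, and for blood coagulation 34 lower and 16 higher of 118. For the platelet alpha granule, 4 of 10 genes were called lower and 4 higher, and the summed reads of all 15 genes of the term went from 109.2 to 156.4 RPM (reads per 1000000 reads on genes). For megakaryocyte differentiation 2 of 30 genes were called lower and 4 higher, with a median of -0.01, and for platelet formation 4 of 16 were lower and 0 higher. Of all genes evaluated, 17.9% were called lower and 11.9% higher. The terms share genes with each other and with the lists of the report, and no test was made between them.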
